A study of Mus musculus with 10 samples.

Results

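Semaphorins are guidance cues that cells secrete or carry on their surface, and neuropilins and plexins are the receptors that read them. The 10 genes of this signalling system described here were the secreted class 3 ligands *Sema3a*, *Sema3c*, *Sema3d* and *Sema3e*, the transmembrane ligands *Sema5a* and *Sema6a*, the neuropilins *Nrp1* and *Nrp2*, and the plexins *Plxna2* and *Plxnd1*. They were found by gene symbol among 32285 genes counted in single cells of the developing mouse lower incisor, and each symbol matched 1 row. Wild-type NMRI embryos gave whole mandibles on embryonic day E11.5 and buds of the lower incisor on the later days, E14.5 and E16.5. GEO lists 4, 4 and 2 samples for the 3 stages, with no treatment or mutation in any of them. The deposited counts hold 1 matrix per stage whose barcodes do not show the sample, so a stage is 1 sample, no p-value is given, and every interval below is a 95% interval for counting error only. Stage, dissected tissue and library cannot be told apart.

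Class 3 semaphorins bind neuropilins, which have a short cytoplasmic tail and pass the signal through a plexin of the A or D type. *Sema3e* is the known exception, since it can bind *Plxnd1* directly, and *Sema6a* binds A-type plexins without a neuropilin. The system is best known for steering axons and blood vessels, and in teeth *Sema3a* is known as a repellent that keeps nerve fibres away from the early tooth germ. *Nrp1* also binds VEGF together with the receptor encoded by *Kdr*, and *Nrp2* is a receptor of lymphatic and venous endothelium.

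Of 22619 barcodes, 17175 had at least 700 genes and at most 20% mitochondrial UMIs (unique molecular identifiers, each standing for 1 captured transcript). These were 6573, 6091 and 4511 cells, with a median of 5664, 3471 and 6260 UMIs per cell, in order of stage. A cell was given to a lineage when at least 3 genes of that lineage's marker list had a UMI, and cells that met this for more than 1 lineage were set apart as mixed (82, 266 and 280 cells). This gave 5165, 4246 and 2386 mesenchymal cells and 61, 135 and 108 endothelial cells at the 3 stages, and 688 and 1483 epithelial cells at E14.5 and E16.5. Only 8 epithelial cells were called at E11.5, which is too few for a comparison. Since these lists made the calls, their levels describe the groups and are no check of them. The 9 endothelial markers summed to between 2888 and 4108 CPM (UMIs of a gene per 1000000 UMIs of the summed cells) in endothelium and to between 12.6 and 20.1 CPM in mesenchyme. The 10 epithelial markers summed to 2148 and 2936 CPM in epithelium at E14.5 and E16.5 and to 50.7 and 75.7 CPM in mesenchyme. The E11.5 matrix held no UMI of the Y-linked genes *Ddx3y*, *Eif2s3y*, *Kdm5d* and *Uty*, against 1268 and 1977 UMIs in the later matrices, so the sex of the embryos cannot be told apart from stage either. The 3 matrices had 46 barcodes in common.

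All 10 genes had UMIs at each stage. At least 1 of them was found in 76.1% of mesenchymal and 96.7% of endothelial cells at E11.5, in 72.1% of epithelial, 64% of mesenchymal and 88.1% of endothelial cells at E14.5, and in 80.9%, 69% and 95.4% of these cells at E16.5. In erythroid cells, a lineage not known for this system, the share was 9.62% at E11.5 (10 of 104 cells, median 3717 UMIs). Among the 20 erythroid cells at E14.5, with a median of 3905 UMIs, it was 30% (11.9 to 54.3). An endothelial cell carried UMIs of a median of 3, 2 and 3 of the 10 genes.

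**Figure D1:**
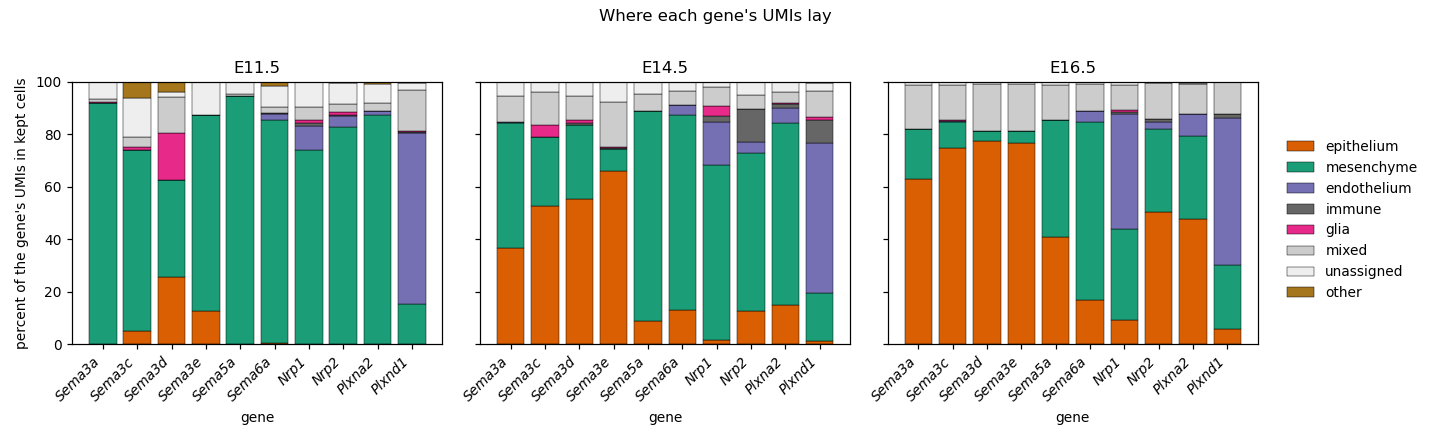
Each bar stacks the percent of a gene's UMIs found in each lineage among all kept cells of a stage, where mixed stands for cells with markers of more than 1 lineage, unassigned for cells of no lineage and other for erythroid and muscle cells. At E16.5 epithelium held 76.8% of the *Sema3e* UMIs and endothelium 56% of the *Plxnd1* UMIs, while mesenchyme held 94.6% of the *Sema5a* UMIs at E11.5. These shares also follow the number of cells of a lineage. Epithelium and endothelium made up 32.9% and 2.39% of kept cells at E16.5, and mesenchyme 78.6% at E11.5.

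Summed over all epithelial cells, the secreted class 3 ligands were higher in the epithelium of the incisor buds than in their mesenchyme. This did not hold for each gene in each group of epithelial cells described below. The *Shh* group at E14.5 had 7.12 CPM of *Sema3d* (3 UMIs) and 11.9 CPM of *Sema3a* (5 UMIs). Mesenchyme of that stage had 13.3 and 23.9 CPM. *Sema3e* had 29.7 CPM (25.4 to 34.7) in the epithelium at E14.5 and 21.8 CPM (19.5 to 24.2) at E16.5, while mesenchyme had 1.26 and 1.16 CPM. This was 23.7-fold more in epithelium at E14.5 (15 to 39.3) and 18.7-fold more at E16.5 (11.9 to 31). Endothelium had no *Sema3e* UMI at any stage, which allows up to 4.79, 4.69 and 3.3 CPM at the 3 stages. *Sema3d* had 79.7 CPM (72.4 to 87.6) and 81.9 CPM (77.5 to 86.5) in epithelium, against 13.3 and 3.78 CPM in mesenchyme. The epithelial excess of *Sema3d* was 6.01-fold (5.1 to 7.09) at E14.5 and 21.6-fold (16.9 to 28.2) at E16.5. *Sema3c* stood at 26.3 CPM (22.2 to 30.9) and 28.3 CPM (25.8 to 31.1) in epithelium, and at 4.31 and 3.49 CPM in mesenchyme, a ratio of 6.1 (4.57 to 8.21) and of 8.11 (6.19 to 10.8).

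The difference was also seen in the share of cells with a UMI. *Sema3d* was found in 32% and 36.5% of epithelial cells at E14.5 and E16.5, and in 4.47% and 2.39% of mesenchymal cells. Median depth was 5073 and 7067 UMIs in these epithelial cells and 3336 and 5896 in mesenchymal cells. With each cell thinned to 2000 UMIs, the shares for *Sema3d* were 13% (10.5 to 15.9) and 13.6% (11.9 to 15.6) in epithelium and 2.67% and 0.681% in mesenchyme. In the 20 erythroid cells at E14.5, with a median of 3905 UMIs, 1 cell carried a *Sema3d* UMI. *Sema3d* was also present in the 34 glial cells at E14.5, where 9 UMIs gave 62.8 CPM (28.7 to 119), and these cells had 90.7 CPM (48.3 to 155) of *Sema3c*, the highest level of *Sema3c* at that stage.

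The genes *Sema3a*, *Sema3c*, *Sema3d* and *Sema3e* all lie on the plus strand of mouse chromosome 5, between positions 12383385 and 17730268 of the mm10 (GRCm38) build, with *Sema3d* first and *Sema3c* last. The stretches of 250 bases before the RefSeq start sites of *Sema3d* (chr5:12382916-12383165) and *Sema3e* (chr5:14025026-14025275) are shown because both genes were epithelial and both stretches lie outside the annotated gene. They are given 5′ to 3′ on the strand of the gene, from RefSeq (GRCm38.p6). Capitals mark matches, on either strand, to GGGCGG (GC box), CCGGAA (an ETS-type motif) or CCAAT.

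Sema3d: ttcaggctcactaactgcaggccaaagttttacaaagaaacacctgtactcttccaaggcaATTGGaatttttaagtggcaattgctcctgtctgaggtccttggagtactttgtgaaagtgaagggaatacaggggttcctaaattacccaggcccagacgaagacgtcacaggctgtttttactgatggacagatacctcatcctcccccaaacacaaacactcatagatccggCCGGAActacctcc
Sema3e: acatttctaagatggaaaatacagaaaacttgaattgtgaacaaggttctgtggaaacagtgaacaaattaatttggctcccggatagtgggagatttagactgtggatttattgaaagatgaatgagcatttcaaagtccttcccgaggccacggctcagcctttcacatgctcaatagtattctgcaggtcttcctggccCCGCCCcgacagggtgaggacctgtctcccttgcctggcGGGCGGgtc

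The *Sema3d* stretch held 1 CCGGAA and 1 CCAAT match and no GC box, and the *Sema3e* stretch held 2 GC boxes. Among 32851 mouse stretches of this length, 32.7% held GGGCGG, 12% held CCGGAA and 33.8% held CCAAT, and a match is only a description of these letters. The motif TATAAA, held by 12.4% of all stretches, had no match in either one. The same was true of the E-box CACGTG, which 6.02% of stretches hold, and of GGAAGT, a further ETS-type motif that 19.7% hold. Stretches were taken for 9 of the 10 genes, all but *Sema6a* on chromosome 18. They ranged from 40.8% G and C bases for *Sema3a* to 78.4% for *Sema3c*, and both of these stretches lie inside the annotated gene. The *Sema3d* and *Sema3e* stretches shown had 46.8% and 48%.

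*Sema3a* was already frequent in the mesenchyme of the E11.5 mandible, where it had 68.1 CPM (65.6 to 70.6) and was found in 30.5% of mesenchymal cells, against 0.962% of erythroid cells. In mesenchyme it then stood at 23.9 CPM (21.6 to 26.3) at E14.5 and 23.8 CPM (21.5 to 26.2) at E16.5. The epithelium had 55.8 CPM (49.7 to 62.4) at E14.5 and 83.6 CPM (79.2 to 88.2) at E16.5, which was 2.34-fold (2.01 to 2.72) and 3.52-fold (3.15 to 3.94) the level of mesenchyme. The epithelial UMIs at E16.5 were unevenly spread, since 1079 of 1483 cells had none, 67 cells had 5 or more, 1 cell had 73, and the top 15 cells held 31.3% of them. At E14.5 the most in 1 epithelial cell was 7, and the top 7 of 688 cells held 12.4%. Endothelium had 2, 3 and 0 *Sema3a* UMIs at the 3 stages.

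The transmembrane ligands were mesenchymal or shared. *Sema5a* (chromosome 15, 32244810 to 32696341) had 94.9 CPM (91.9 to 97.9), 71.8 CPM (67.8 to 76) and 51.3 CPM (48 to 54.8) in mesenchyme, in order of stage. Its epithelial level was 24.6 CPM (20.6 to 29.1) at E14.5 and 50.7 CPM (47.3 to 54.4) at E16.5, so the lineages differed at E14.5 and had overlapping intervals at E16.5. In endothelium 3, 1 and 0 UMIs of *Sema5a* were counted. *Sema6a* (chromosome 18) had 65.4, 76.6 and 63.9 CPM in endothelium and 35.2, 56.2 and 52.6 CPM in mesenchyme. The endothelial and mesenchymal intervals of *Sema6a* overlapped at E14.5 (56.7 to 101 and 52.6 to 59.9) and at E16.5 (48.5 to 82.6 and 49.2 to 56.1) but not at E11.5 (46.9 to 88.7 and 33.4 to 37.1). Epithelium was lower, with 30.5 CPM (26 to 35.5) and 13.8 CPM (12.1 to 15.8). Among 29 muscle cells of the E11.5 mandible, 24 *Sema6a* UMIs gave 97.7 CPM (62.6 to 145).

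The receptors differed in how far their endothelial level stood from that of mesenchyme. *Plxnd1*, the plexin of developing vessels, lies on the minus strand of chromosome 6 (115954811 to 115995005) and had 645 CPM (583 to 711), 466 CPM (414 to 522) and 574 CPM (526 to 625) in endothelium at the 3 stages. Mesenchyme had 2.32, 5.68 and 13.2 CPM, so that the endothelial level was 278-fold (222 to 352), 82-fold (64.9 to 104) and 43.6-fold (37.2 to 51.2) that of mesenchyme. A *Plxnd1* UMI was found in 90.2%, 70.4% and 89.8% of endothelial cells and in 1.78%, 2.21% and 7.59% of mesenchymal cells. Erythroid cells had 2.88% at E11.5 (median 3717 UMIs against 6341 in mesenchyme), and at E14.5 1 of 20 erythroid cells had a *Plxnd1* UMI. The mesenchymal values at these stages cannot be told from free RNA, so the 278-fold and 82-fold ratios are best read as lower bounds. Epithelium had 7 UMIs at E14.5 and 53 at E16.5, or 1.28 and 3.31 CPM. Immune cells were in between, with 58 CPM (42.5 to 77.4) at E14.5 and 64 CPM (35.8 to 106) at E16.5.

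The 250 bases before the *Plxnd1* start site (chr6:115995006-115995255, minus strand, RefSeq, GRCm38.p6) are shown because this gene had the widest difference between lineages. The capitals mark its only match among the motifs above, a GC box.

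Plxnd1: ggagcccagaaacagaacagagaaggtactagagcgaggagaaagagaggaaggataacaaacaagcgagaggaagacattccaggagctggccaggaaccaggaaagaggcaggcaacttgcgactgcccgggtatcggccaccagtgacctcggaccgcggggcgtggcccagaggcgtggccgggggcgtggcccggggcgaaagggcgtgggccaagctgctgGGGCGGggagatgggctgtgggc

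*Nrp1* (chromosome 8, 128358604 to 128503363) had 195 CPM (162 to 232), 269 CPM (230 to 312) and 280 CPM (246 to 316) in endothelium. Mesenchyme had 24.5 CPM (23 to 26.1), 41.3 CPM (38.3 to 44.5) and 11.7 CPM (10.1 to 13.4), and epithelium 2.74 CPM at E14.5 and 3.25 CPM at E16.5. The 34 glial cells at E14.5 had 258 CPM (182 to 356) of *Nrp1*, an interval that overlaps with that of endothelium. *Nrp2* (chromosome 1, 62703285 to 62818695) was found in more lineages. Its endothelial level was 140 CPM (113 to 173), 216 CPM (181 to 255) and 173 CPM (147 to 202), and its mesenchymal level 39.3 CPM (37.4 to 41.3), 113 CPM (108 to 118) and 101 CPM (96.5 to 106). In epithelium *Nrp2* had 72.4 CPM (65.5 to 79.9) at E14.5 and 174 CPM (167 to 180) at E16.5. Immune cells had 497 CPM (449 to 548) of *Nrp2* over 110 cells at E14.5, the highest level of that stage, and 256 CPM (195 to 329) over 23 cells at E16.5, an interval that overlaps with that of endothelium. The 48 immune cells at E11.5 had 18 CPM (7.22 to 37), or 7 UMIs.

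*Plxna2* (chromosome 1, 194618218 to 194816869) is a plexin that reads class 3 ligands with a neuropilin and class 6 ligands alone. In mesenchyme its highest level was that of the E11.5 mandible, with 41.9 CPM (40 to 43.9), followed by 15.4 CPM (13.6 to 17.4) and 9.08 CPM (7.71 to 10.6) in the buds. Endothelium had 51.1, 32.8 and 44.1 CPM, from 32, 21 and 40 UMIs, and epithelium had 10 CPM (7.56 to 13.1) and 14.8 CPM (12.9 to 16.8). A *Plxna2* UMI was found in 20.5%, 5.3% and 4.86% of mesenchymal cells, and in 1.92% of erythroid cells at E11.5. After thinning to 2000 UMIs the mesenchymal shares were 7.21% (6.5 to 7.98), 3.42% (2.86 to 4.06) and 2% (1.47 to 2.65).

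**Figure D2:**
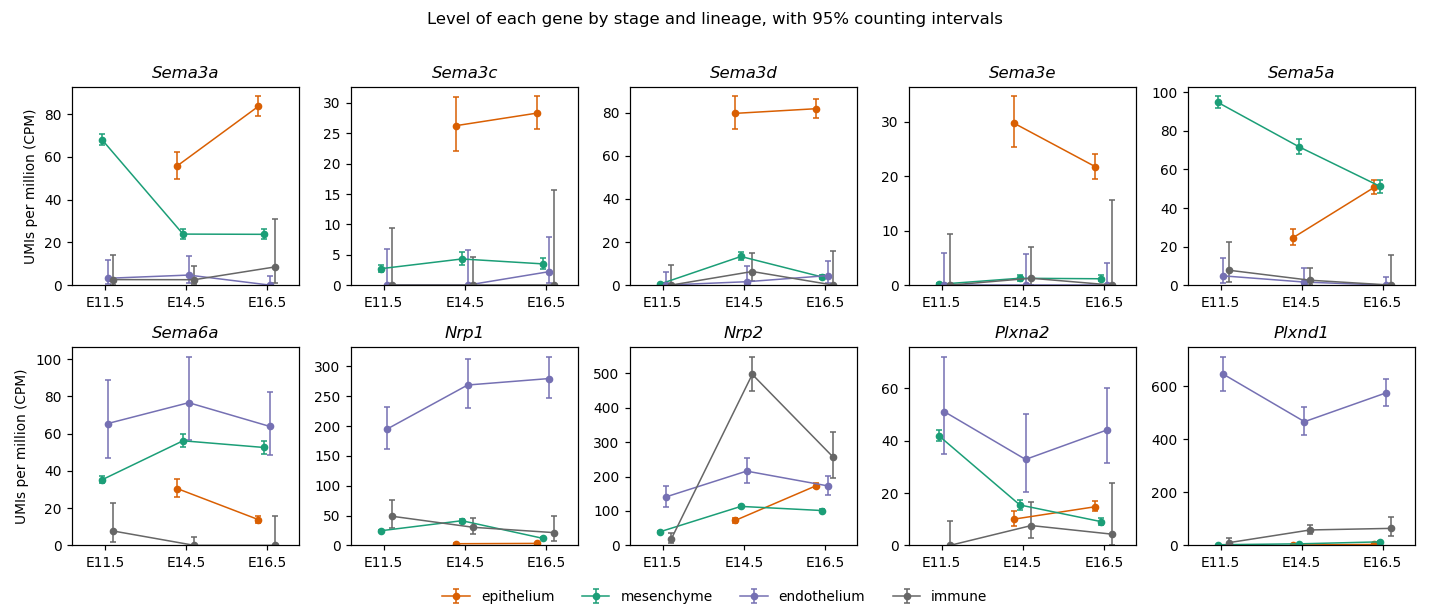
Each panel plots 1 gene, with the CPM in the summed cells of a lineage on the vertical axis, the stage on the horizontal axis and bars for the 95% Poisson interval. Epithelium, mesenchyme, endothelium and immune cells are drawn where a stage held at least 20 of them, and the vertical scale differs between panels. The endothelial points of *Plxnd1* lie between 466 and 645 CPM, and the epithelial line of *Sema5a* meets the mesenchymal one at E16.5.

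Epithelium and mesenchyme were compared over all genes with at least 50 UMIs in both groups together, on the log2 ratio of CPM with 10 CPM added to each side, and a gene was called when the ratio passed 2-fold. At E14.5 *Sema3c* (log2 ratio 1.34), *Sema3d* (1.95) and *Sema3e* (1.82) were called higher in epithelium, which is 3 of 10 genes against 3.89% of 11295 genes tested. *Sema5a* (-1.24) and *Nrp1* (-2.01) were called lower, 2 of 10 against 4.33%. *Sema3a* stayed just inside the limit (0.96), and the median of the 10 genes was -0.41 against 0.01 over all genes. At E16.5 *Sema3a* (1.47), *Sema3c* (1.51), *Sema3d* (2.74) and *Sema3e* (1.51) were higher, 4 of 10 against 3.63% of 12457 genes, and *Sema6a* (-1.39) was lower, 1 of 10 against 4.61%. The median of the 10 was 0.55 against 0.04. Since the 10 genes were chosen with earlier results of these data known, such shares are a description and no test. *Sema5a* stood at -0.01 at E16.5, and *Nrp2* and *Plxna2* at 0.72 and 0.38, after -0.58 and -0.34 at E14.5.

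Between endothelium and mesenchyme of the same stage, *Nrp1* and *Plxnd1* were called higher in endothelium at each stage and *Sema3a* and *Sema5a* lower, while *Sema6a* stayed within 2-fold on the endothelial side (log2 ratio 0.74, 0.39 and 0.24). At E11.5 *Nrp1* (2.57), *Nrp2* (1.61) and *Plxnd1* (5.73) were called higher in endothelium, 3 of 8 tested genes (*Sema3d* and *Sema3e* had under 50 UMIs) against 7.04%, and *Sema3a* (-2.57) and *Sema5a* (-2.83) lower, 2 of 8 against 6.18%. At E14.5 *Nrp1* (2.44) and *Plxnd1* (4.92) were higher, 2 of 9 against 6.75%, and *Sema3a* (-1.21), *Sema3d* (-1.01) and *Sema5a* (-2.82) lower, 3 of 9 against 7.31%. The *Sema3d* call rests on 1 endothelial UMI (ratio 0.118, 0.00297 to 0.663) and *Sema3a* on 3 (ratio 0.197, 0.0404 to 0.579). At E16.5 *Nrp1* (3.74), *Plxna2* (1.5) and *Plxnd1* (4.66) were higher, 3 of 9 against 6.72%, and *Sema3a* (-1.76) and *Sema5a* (-2.62) lower, 2 of 9 against 8.59%. *Sema3a* and *Sema5a* had no endothelial UMI at E16.5. With a floor of 3 counts in place of none, their endothelial level would be 0.139 and 0.0644 of the mesenchymal one. *Nrp2* was 3.57-fold higher in endothelium at E11.5 (2.85 to 4.43) and 1.91-fold (1.59 to 2.27) and 1.71-fold (1.44 to 2.01) later. The medians over all genes were -0.15, -0.11 and -0.13, and those of the tested members 0.49, 0.39 and 0.24.

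**Figure D3:**
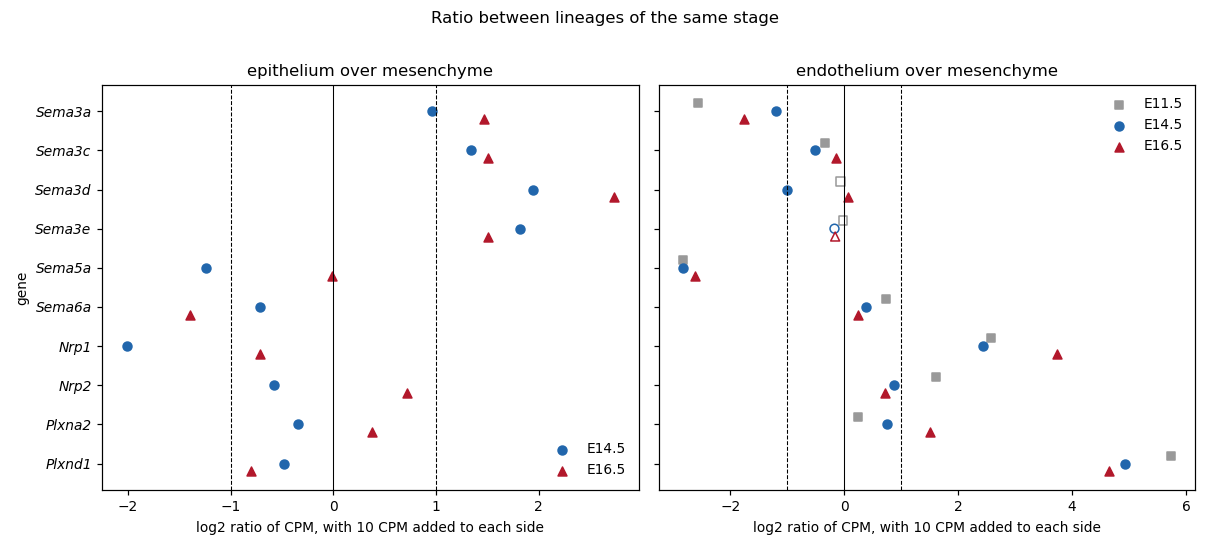
The log2 ratio of CPM, with 10 CPM added to each side, is plotted per gene for epithelium over mesenchyme (left) and endothelium over mesenchyme (right), with 1 symbol per stage, dashed lines at 2-fold and open symbols for genes with under 50 UMIs. *Plxnd1* lies between 4.66 and 5.73 on the right, and the 4 class 3 ligands lie right of 0 on the left at both stages.

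*Plxnd1* and *Nrp1* were both found in 37 of 61 endothelial cells at E11.5 (60.7%, 47.3 to 72.9), 61 of 135 at E14.5 (45.2%, 36.6 to 54) and 70 of 108 at E16.5 (64.8%, 55 to 73.8). The product of the shares of each gene was 56.2%, 41.2% and 61.5%, inside these intervals. *Nrp1* and *Nrp2* shared 42.6%, 25.2% and 46.3% of the endothelial cells, against products of 36.8%, 26.4% and 41.2%. In the epithelium, 41 of the 86 cells with a *Sema3e* UMI at E14.5 and 103 of the 160 such cells at E16.5 also had a *Sema3a* UMI. Both were found in 5.96% (4.31 to 8) and 6.95% (5.7 to 8.36) of epithelial cells, against a product of 3.4% and 2.94%. Other class 3 pairs were also above their product. *Sema3a* and *Sema3d* shared 12.8% and 13.5%, against 8.69% and 9.96%. For *Sema3a* and *Sema3c* the values were 7.12% and 8.23%, against 4.31% and 5.29%. *Sema3a* and *Nrp2* lay near their product, with 7.7% and 13.55% against 7.63% and 13.08%. Deeper cells are more likely to show any pair, and the part of depth in these shares was not tested.

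Between stages, the mesenchyme of the E14.5 bud was set against that of the E11.5 mandible. *Nrp2* (log2 ratio 1.32, 2.88-fold, 2.69 to 3.08) and *Sema3d* (1.15) were called higher at E14.5, 2 of 9 tested genes against 2.88% of 12669. *Sema3a* (-1.21) and *Plxna2* (-1.03) were called lower, 2 of 9 against 1.91%, with levels of 0.351 (0.315 to 0.39) and 0.368 (0.322 to 0.42) of those at E11.5. *Sema3d* went from 19 UMIs in 5165 cells to 222 in 4246 cells, a ratio of 28.7 (17.9 to 48.5). The 10 epithelial markers summed to 4.71 CPM in this mesenchyme at E11.5 and to 50.7 CPM at E14.5, and at E14.5 a *Sema3d* UMI was found in 4.47% of mesenchymal cells and in 1 of 20 erythroid cells. The part of epithelial RNA in this ratio was not tested. *Nrp2* had no UMI in 104 erythroid cells at E11.5 and was found in 4 of 20 at E14.5. The part of free RNA in the *Nrp2* ratio was not tested. *Nrp1* and *Sema6a* were 1.69-fold and 1.59-fold higher, and *Sema5a* was at 0.757 of its E11.5 level. The median was 0.35 for the tested members and -0.09 for all genes. The median depth was 6341 UMIs per mesenchymal cell at E11.5 and 3336 at E14.5.

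From E14.5 to E16.5, *Nrp1* in mesenchyme went from 41.3 to 11.7 CPM (log2 ratio -1.24, ratio 0.283, 0.241 to 0.332). It was the 1 call, lower, of 9 tested genes against 0.43%, and none of the 9 was called higher against 1.21%. *Sema3d* (ratio 0.285, 0.213 to 0.377) and *Plxnd1* (2.31, 1.81 to 2.97) had intervals away from 1 but did not pass 2-fold once 10 CPM was added. The share of mesenchymal cells with an *Nrp1* UMI was 10.9% at E14.5 and 6.04% at E16.5, and 7.31% (6.49 to 8.19) and 2.34% (1.77 to 3.04) at 2000 UMIs per cell.

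In epithelium from E14.5 to E16.5, *Nrp2* was the 1 gene called, higher, of 10 tested against 1.26% (log2 ratio 1.15, 2.4-fold, 2.15 to 2.67), and none was called lower against 0.391%. At E16.5, 46 epithelial cells also carried at least 3 of 8 neuron markers. These cells had a median of 19680 UMIs and 429 CPM (394 to 467) of *Nrp2*, 132 CPM of *Sema3d* and no *Sema3e* UMI. Without them, or with the neuron list used in the call, the log2 ratio of *Nrp2* was 0.96 and the call was lost. *Sema5a* was 2.06-fold higher (1.72 to 2.49), *Sema3a* 1.5-fold higher (1.32 to 1.7), and *Sema6a* was at 0.454 (0.37 to 0.558) of its E14.5 level. *Sema3c* and *Sema3d* differed by 1.08-fold (0.892 to 1.31) and 1.03-fold (0.921 to 1.15), and *Sema3e* was at 0.732 (0.606 to 0.887).

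In endothelium no member passed 2-fold between stages. From E11.5 to E14.5, 0 of 5 tested genes were higher against 1.69% and 0 of 5 lower against 1.97%. From E14.5 to E16.5 the counts were again 0 of 5, against 0.858% higher and 0.245% lower. *Plxnd1* was at 0.723 (0.62 to 0.842) of its E11.5 level at E14.5 and then 1.23-fold higher (1.07 to 1.42), and *Nrp1* was 1.38-fold higher (1.09 to 1.76) at E14.5 and differed by 1.04-fold (0.854 to 1.27) afterwards.

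The E11.5 mandible held mesenchyme of different regions. Cells were grouped by the marker list with the most UMIs, at least 2, and those given to *Barx1* (1784 cells) are compared here with those given to *Hand2* and *Cited1* (1476 cells). Other mesenchymal cells of the mandible are not reported here, so the values describe these 2 groups and no axis of the jaw. *Plxna2* had 62.2 CPM (58.4 to 66.1) in the *Barx1* group and 30.1 CPM (27.2 to 33.2) in the *Hand2* group, a ratio of 0.484 (0.43 to 0.544). *Nrp2* ran the other way, with 29.6 CPM (27 to 32.3) and 46.5 CPM (43 to 50.4), 1.57-fold more in the *Hand2* group (1.4 to 1.78). *Nrp1* had 23.3 CPM (21 to 25.8) and 30.4 CPM (27.5 to 33.5), a ratio of 1.3 (1.13 to 1.5). *Sema3a* was also higher in the *Hand2* group, with 72.8 CPM (68.3 to 77.5) against 47.4 CPM (44.1 to 50.8), while *Sema5a* was lower, with 68.7 CPM (64.3 to 73.2) against 102 CPM (97 to 107). *Sema6a* had 35 and 34.3 CPM, with overlapping intervals. Median depth was 7396 and 7016 UMIs.

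**Figure D4:**
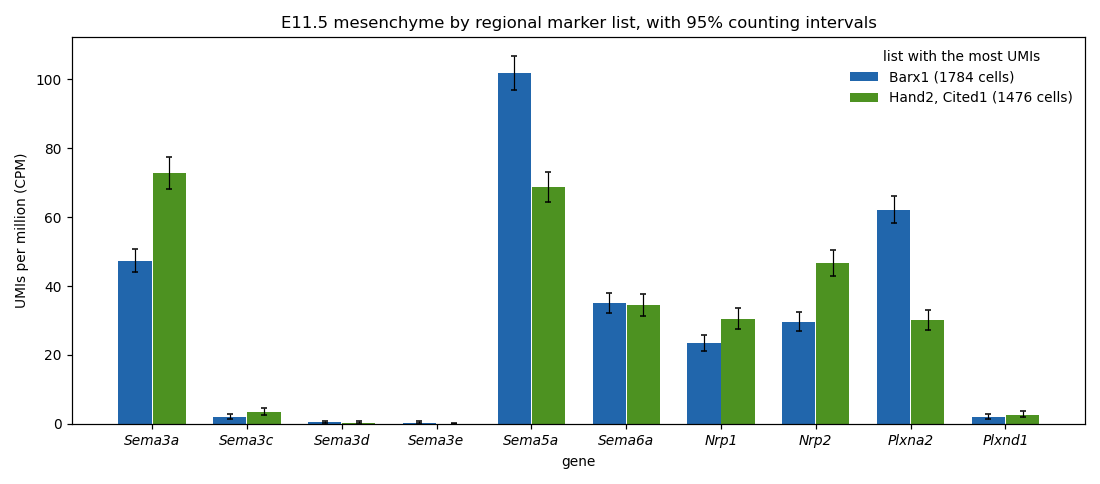
Bars give the CPM of each gene in E11.5 mesenchymal cells of the *Barx1* and *Hand2* groups, with 95% Poisson intervals. *Plxna2* is higher in the *Barx1* group at 62.2 CPM, *Nrp2* is higher in the *Hand2* group at 46.5 CPM, and *Sema6a* stands near 35 CPM in both.

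In the buds, mesenchymal cells were split by lists of dental papilla genes (*Lhx6*, *Lhx8*, *Fgf3*, *Fgf10*, *Crym*), osteogenic genes (*Runx2*, *Sp7*, *Alpl*, *Ibsp*, *Spp1*, *Bglap*, *Bglap2*) and mural cell genes (*Rgs5*, *Kcnj8*, *Abcc9*, *Notch3*, *Cspg4*, *Mcam*). At E14.5 *Nrp2* had 157 CPM (147 to 167) in the osteogenic group of 1369 cells and 37.1 CPM (29.4 to 46.2) in the papilla group of 346 cells, a ratio of 0.237 (0.186 to 0.298). *Plxna2* had 26.9 CPM (22.9 to 31.4) and 2.78 CPM (1.02 to 6.06) in these groups. By E16.5 *Nrp2* had 114 CPM (108 to 121) and 93.7 CPM (79.8 to 109) in groups of 1237 and 194 cells, and the ratio was 0.819 (0.69 to 0.967). *Sema5a* was 1.45-fold higher (1.22 to 1.73) in the papilla group at E14.5, and *Sema6a* was at 0.645 (0.509 to 0.81) there. *Nrp1* was highest in the mural group, with 126 CPM (81.6 to 186) over 39 cells at E14.5 and 96.7 CPM (68.1 to 133) over 55 cells at E16.5. The mesenchymal cells in none of these lists had 64.2 CPM (58.9 to 69.8) of *Nrp1* at E14.5 and 11.9 CPM (9.2 to 15.2) at E16.5, and 18.8 CPM (16 to 21.9) and 3.67 CPM (2.24 to 5.67) of *Sema3d*.

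Inside the epithelium several of the genes differed between groups of cells, among them *Sema3e*, *Sema3a*, *Sema3d*, *Sema6a* and *Nrp2*. Epithelial cells were split by *Krt15*, *Meis2* and *Igfbp5*, by *1500009L16Rik*, *Etv4* and *Scx*, by *Shh*, by *Nr2f2* and *Igfbpl1*, and by *Pcp4* and *Cldn10*, again with at least 2 UMIs. *Sox2* alone was a further list in this split. A cell for which *Sox2* was the top list, or tied with the top, is in none of the groups given here. Any ranking of groups leaves such cells out. These lists were drawn up with an earlier clustering of the same cells known, in which *Sema3e* was already high beside *1500009L16Rik*, so its level there is a description only. At E14.5 *Sema3e* had 53.6 CPM (45 to 63.2) in the 256 cells of the *1500009L16Rik* group and 3.62 CPM (1.17 to 8.44) in the 184 cells of the *Krt15* group. At E16.5 it had 75.6 CPM (64.8 to 87.7) over 183 cells, 89.7 CPM (66.1 to 119) over the 50 cells of the *Pcp4* group, 10.5 CPM in the *Krt15* group and 3.54 CPM in the *Nr2f2* group. *Sema3d* at E14.5 had 7.12 CPM in the *Shh* group, from 3 UMIs, and 80.3 CPM in the *Krt15* group. It had 83.8 CPM in the *1500009L16Rik* group and 128 CPM in the *Nr2f2* group. *Sema6a* at E14.5 had 13 CPM in the *1500009L16Rik* group and 33.3 CPM in the *Krt15* group. Its level was 52.2 CPM in the *Shh* group and 91.6 CPM in the *Nr2f2* group.

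Among the groups given at E16.5, *Nrp2* was lowest in the 2 in which *Sema3e* was highest. It had 39.5 CPM (31.8 to 48.6) in the *1500009L16Rik* group and 48.6 CPM (31.7 to 71.2) in the *Pcp4* group, against 179 CPM (158 to 203) in the *Shh* group, 194 CPM (184 to 204) in the *Krt15* group and 278 CPM (259 to 298) in the *Nr2f2* group. At E14.5 it had 209 CPM (167 to 257) in the 43 cells of the *Shh* group, 58.1 CPM (49.3 to 68.2) in the *1500009L16Rik* group and 60.8 CPM (48.5 to 75.2) in the *Krt15* group. *Sema3a* was at 130 CPM (116 to 146) and 187 CPM (152 to 227) in the *1500009L16Rik* and *Pcp4* groups at E16.5, at 93.9 CPM (87.1 to 101) in the *Krt15* group, and at 15.7 CPM (9.85 to 23.8) and 21.2 CPM (16.2 to 27.3) in the *Shh* and *Nr2f2* groups. Mesenchyme had 23.8 CPM (21.5 to 26.2) at E16.5, an interval that overlaps with those of the *Shh* and *Nr2f2* groups. At E14.5 the *Nr2f2* group had the highest *Sema3a* value, 83 CPM (59.05 to 113.5) over 52 cells, against 52 CPM (43.7 to 61.5) in the *1500009L16Rik* group (ratio of the latter to the former 0.627, 0.436 to 0.919), 61.5 CPM (49.1 to 76) in the *Krt15* group, whose interval overlaps with it, and 11.9 CPM (3.85 to 27.7) in the *Shh* group. *Sema3c* stayed between 25 and 37.5 CPM in the 5 groups given at E16.5. *Plxna2* had 24 CPM (20.7 to 27.8) in the *Krt15* group and no UMI in the *Pcp4* group, where up to 5.6 CPM could have gone unseen. Median depth in the E16.5 groups was between 7589 and 8770 UMIs.

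**Figure D5:**
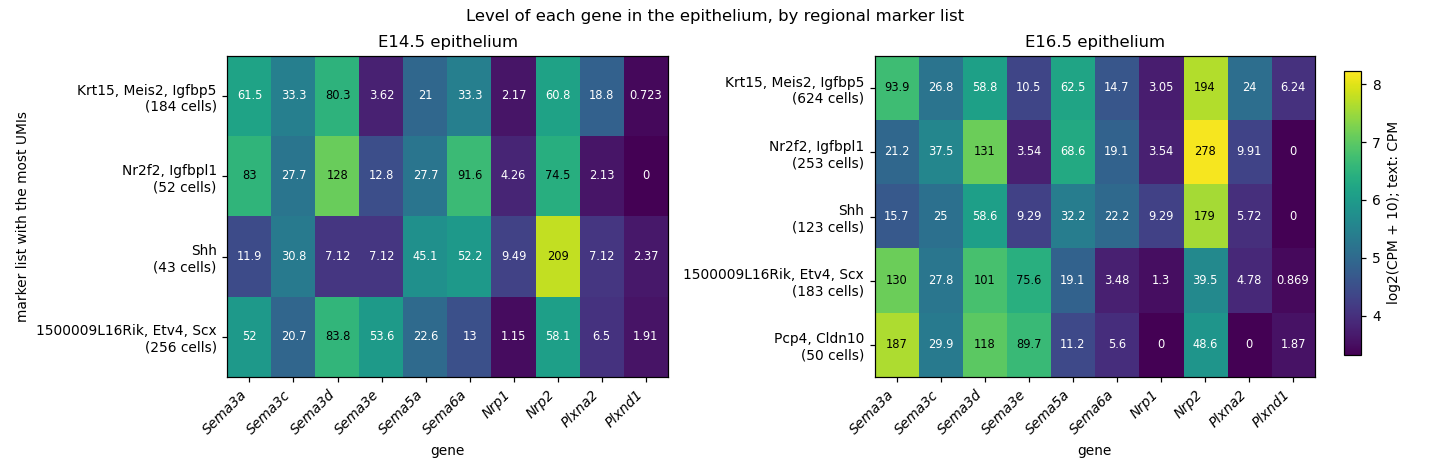
Colour gives log2(CPM + 10) and the printed value the CPM of each gene (columns) in epithelial cells grouped by the marker list with the most UMIs (rows), at E14.5 (left) and E16.5 (right). Cells for which *Sox2* was the top list are not drawn. At E16.5 *Nrp2* has 278 CPM in the *Nr2f2* group and 39.5 CPM in the *1500009L16Rik* group, where *Sema3e* has 75.6 CPM.

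*Sox2* marks the epithelial stem cells of the incisor, so epithelial cells were also split by whether they had a *Sox2* UMI. At E16.5 the 108 cells with one had 321 CPM (295 to 348) of *Sema3a*, against 53.6 CPM (49.9 to 57.6) in the other 1375 cells, a 5.99-fold difference (5.36 to 6.68). *Sema3e* had 78 CPM (65.6 to 92.1) and 14.7 CPM (12.7 to 16.8), and *Nrp2* ran the other way with 79.7 CPM (67.2 to 93.9) and 185 CPM (178 to 192). The cells with a *Sox2* UMI were deeper, with a median of 10602 UMIs against 6877. At 2000 UMIs per cell, *Sema3a* was found in 39.8% (30.5 to 49.7) of the *Sox2* cells and 7.86% (6.45 to 9.47) of the others. At E14.5 *Sema3a* had 63.4 CPM (53.1 to 75.1) in 151 cells with a *Sox2* UMI and 51.1 CPM (43.8 to 59.3) in 537 without, with overlapping intervals. The same split by *Shh*, the signal made by differentiating dental epithelium, gave 42.1 CPM of *Sema3a* with and 110 CPM without a *Shh* UMI at E16.5, a ratio of 0.384 (0.334 to 0.44).

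Other genes of the system were counted from a list of 21 further semaphorins and plexins and a list of 28 co-receptors and cytoplasmic partners. In the epithelium, *Plxnb1*, a plexin that binds class 4 semaphorins, was the 1 of 13 tested family genes called higher at E14.5, with 27.4 CPM against 4.43 CPM in mesenchyme. At E16.5 it was joined by *Sema4g* (24.8 against 3.67 CPM) and *Plxnc1* (16.6 against 2.33 CPM), 3 of 16, and none was lower at either stage. Over all genes 3.89% and 3.63% were called higher, and 4.33% and 4.61% lower. Of the partners, *Chl1*, an adhesion molecule of the L1 family, was the 1 of 23 and 1 of 25 called higher, a share near that of all genes, with 17.3 and 13.9 CPM in epithelium and 0.239 and 0.233 CPM in mesenchyme. The list medians were 0.49 and 0.30 for the family and 0.08 and 0.02 for the partners.

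In endothelium *Sema6d*, a transmembrane ligand, was called higher than in mesenchyme at each stage, with 188, 184 and 167 CPM against 2.29, 9.15 and 10.1 CPM. It was the 1 of 13 tested family genes higher at E11.5 and the 1 of 12 at E14.5, and at E16.5 *Sema4c* (48.5 against 14.7 CPM) made it 2 of 14. *Plxnb2* was lower at E11.5 (12.8 against 44.5 CPM), 1 of 13, and no other family gene was lower. Of the partners, 5 of 22, 4 of 20 and 4 of 23 were higher, against 7.04%, 6.75% and 6.72% of all genes, and 3, 1 and 2 were lower, against 6.18%, 7.31% and 8.59%. *Kdr* (595, 532 and 556 CPM), *Fyn*, a Src-family kinase (140, 169 and 140 CPM), and *Rras*, a small GTPase (59, 84.4 and 109 CPM), were higher at all 3 stages. *Itgb1* and *Rac1* were higher at E11.5, *Plcg1* at E14.5 and *Rac1* at E16.5. *Rnd3*, an atypical small GTPase that binds plexins, was lower at each stage, with 27.1, 26.6 and 20.9 CPM against 228, 168 and 283 CPM. *Farp1* was lower at E11.5 and E16.5 and *Dpysl4* at E11.5.

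Between stages, *Itgb1* (377 against 148 CPM) and *Dpysl3* (44.1 against 15.8 CPM) were the 2 of 22 partners called higher in mesenchyme at E14.5 than at E11.5 (2.88% of all genes), and none of 17 family genes was called. From E14.5 to E16.5 none of 16 family genes and 23 partners was called in mesenchyme, against 1.21% of all genes higher and 0.43% lower. In epithelium *Plxnc1* (16.6 against 3.1 CPM) was the 1 of 15 family genes called higher (1.26% of all genes), with none of 24 partners. In endothelium none of the 1 and 10 genes tested from E11.5 to E14.5, or of the 2 and 11 tested from E14.5 to E16.5, was called. Over all genes, 1.69% were higher and 1.97% lower from E11.5 to E14.5, and 0.858% and 0.245% from E14.5 to E16.5.

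Over the 10 groups of a stage and lineage with at least 50 cells, the gene whose log2(CPM + 10) was most like that of each member was found among 8784 genes by Pearson's r. These r values describe 10 points that come from 3 matrices and carry no test. For the class 3 ligands the closest genes were *Bcl11a* for *Sema3a* (r 0.98), *Has3* for *Sema3c* (r 0.996), *Dsp* for *Sema3d* (r 0.979) and *Irx1* for *Sema3e* (r 0.998). *Ccdc18* and *Zcchc18* came next for *Sema3a*, *Minar2* and *Parm1* for *Sema3c*, *Has3* for *Sema3d*, and *Macc1* and *Lamb3* for *Sema3e*. For the other ligands they were *Dzip1* for *Sema5a* (r 0.996), with *Tbx3* and *Plppr3* next, and *Fermt2* for *Sema6a* (r 0.972), with *Plpp3* and *Fbxl7* next. For the receptors they were *Arhgap31* for *Nrp1* (r 0.981), *Stxbp3* for *Nrp2* (r 0.973), *Hmgn5* for *Plxna2* (r 0.96) and *Dusp3* for *Plxnd1* (r 0.993). *Itga5* and *Hpgd* followed for *Nrp1*, *Dpm2* and *Bax* for *Nrp2*, *Casd1* and *Flywch1* for *Plxna2*, and *Smagp* and *Tfpi* for *Plxnd1*.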

How the data were processed

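Mouse mandibles or incisor buds were processed individually into single cells, which were captured with 10x 3′ chemistry. The authors deposited raw UMI counts per gene and barcode, made with Cell Ranger 4.0.0 on mm10. There was 1 matrix per stage, and its barcodes carry no sample, so no test between samples was possible. Whether a matrix holds all the labelled samples of its stage (4, 4 and 2) is not shown by the labels. Barcodes were kept from 700 detected genes upward if mitochondrial UMIs made up no more than 20%. A lineage was called from at least 3 markers of its list, erythroid cells from haemoglobin and related genes taking at least 5% of UMIs. A neuron list was dropped from the call after the data were seen. Cells with markers of more than 1 lineage were left out as possible doublets, and no doublet caller was run. Counts were summed per group and scaled to CPM, with exact Poisson, Clopper-Pearson or conditional binomial 95% intervals, which cover counting error only. Ratios were taken with 10 CPM added for genes with at least 50 UMIs over both groups of at least 50 cells, and called past 2-fold. The floor was 3 counts per group. Shares were repeated with cells thinned to 2000 UMIs, leaving out shallower cells. All 10 members were named, other family genes and partners where called, and the 3 most similar genes for each member, apart from items not reported here. Members and lists were chosen with earlier results of these data known. The scripts were tested on simulated data. Python 3.11.15, numpy 2.4.6, scipy 1.17.1, pandas 2.3.3 and matplotlib 3.10.9 were used.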

Additional observations from a re-analysis of the deposited data

Results flagged for a closer look

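For 3 genes the ratio of E16.5 to E14.5 had a 95% counting interval wholly above 1 in epithelium and wholly below 1 in mesenchyme, and the difference between the lineages was not tested. *Sema5a* was 2.06-fold higher in epithelium at E16.5 and at 0.714 of its E14.5 level in mesenchyme. *Nrp2* was 2.4-fold higher in epithelium and at 0.895 in mesenchyme. Its 2-fold call in epithelium was lost without the 46 epithelial cells at E16.5 that had at least 3 neuron markers. *Plxna2* was 1.47-fold higher in epithelium and at 0.589 in mesenchyme. UMIs of the 10 genes were also present in barcodes outside the cell filter, which entered no comparison. They were 893 of 15877 UMIs at E11.5 (5.62%, 2135 barcodes), 455 of 10452 at E14.5 (4.35%, 2101 barcodes) and 152 of 15861 at E16.5 (0.958%, 1208 barcodes).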

How the results depend on the processing

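Over 14 alternatives, all 31 calls of members kept their sign and 13 stayed past 2-fold under each alternative that gave a value. With 1 CPM added in place of 10, 31 of 31 calls held, and 3 members in place of 1 passed 2-fold from E14.5 to E16.5 in mesenchyme and 3 in place of 1 in epithelium. With 50 CPM added, 13 of 31 held. The members past 2-fold were then 1 in place of 5 for epithelium over mesenchyme at E14.5 and 1 in place of 5 at E16.5, 3 in place of 5 for endothelium over mesenchyme at E14.5 and 3 in place of 5 at E16.5, 0 in place of 4 for mesenchyme at E14.5 over E11.5, and 0 in place of 1 from E14.5 to E16.5 in mesenchyme and in epithelium. Adding more CPM shrinks every ratio by construction. With cells thinned to 2000 UMIs, 3 in place of 5 passed for endothelium over mesenchyme at E14.5, and the cause was not tested. With the neuron list used in the call, or without the epithelial cells that had at least 3 neuron markers, 0 in place of 1 passed in epithelium from E14.5 to E16.5. Both were chosen after seeing the data. With 1 marker UMI in place of 2 for the regional groups, 174 of 180 ratios moved by less than their counting interval. Endothelium at E11.5 fell under 50 cells when 1000 genes and no more than 10% mitochondrial UMIs were required (49 cells) and after thinning (49 cells), and gave no value there. No paired analysis was possible because the barcodes do not show the sample, and for the same reason leaving out replicates and DESeq2 were not run.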
